A study of Sus scrofa with 4 samples.

Results

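The keratins described here are those of the companion layer, the infundibulum and the simple epithelia, and were taken by symbol from a fixed list of 9 genes, which are KRT17, KRT75, KRT79, KRT6A, KRT7, KRT8, KRT18, KRT19 and KRT23. Of the 29837 named genes in the counts, 7 of the 9 were found by symbol and all 7 passed the filter on low counts, which kept 15980 genes. KRT17 and KRT75 had no entry under those symbols and have no value here. The cells came from the skin of juvenile LGR5-H2B-GFP pigs. In these, a sequence for histone H2B joined to GFP was placed in exon 1 of 1 LGR5 allele, so that the LGR5 promoter drives nuclear GFP. The authors describe this signal as diluted at each division and use it for limited tracing of descendants, so it is not only a measure of current LGR5 activity. These pigs descend from fetal fibroblast colonies through somatic cell nuclear transfer, either directly or as progeny, and which of these applies to the sequenced animals is not given in the sources used here. Hair and epidermis of pigs 88R and 95R were dissociated and sorted into a GFP-high population (LGR5-high) and a GFP-negative population (LGR5-negative), with 1 poly(A) RNA library for each population and pig, 4 libraries in all. Both populations of a pig carried the same knock-in allele and received no treatment. The level of LGR5 itself was 160 ± 39.6 CPM in sorted LGR5-high cells against 2.44 ± 1.66 CPM in the negative ones (SD, n = 2 pigs), where CPM is the count scaled to library depth and composition. Libraries held between 30890232 and 32598670 counts.

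Keratins are the intermediate filament proteins of epithelial cells, and each filament is built from pairs of a type I (acidic) and a type II (basic to neutral) chain. In the hair follicle the chains differ by compartment. KRT75 and KRT6A mark the companion layer, the single cell sheet between outer and inner root sheath, and KRT6A, KRT16 and KRT17 are also made in the outer root sheath and in wounded or hyperproliferative epidermis. KRT79 belongs to the infundibulum, the upper canal of the follicle. KRT8 and KRT18 are the partner chains of simple, single-layered epithelia and of Merkel cells, the touch-sensing cells of skin, while KRT7 and KRT19 occur in glandular and ductal epithelium and KRT19 also in the follicle bulge. KRT23 is a less studied type I chain.

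LGR5-high cells had more RNA of 4 of the 7 keratins than LGR5-negative cells, and less of 1. By the ratio of the mean CPM, KRT8 was 52.3-fold, KRT6A 19.9-fold, KRT19 8.26-fold and KRT7 3.01-fold higher, and KRT79 was 1.98-fold lower. KRT18 and KRT23 did not pass the test in either direction. Calls rest on the quasi-likelihood test of edgeR, a count model, at a Benjamini-Hochberg adjusted p-value under 0.05, adjusted over all 15980 genes. Every log2 fold change is LGR5-high minus LGR5-negative with its standard error (SE). Of all tested genes, 22.7% were called higher and 22% lower in LGR5-high. Scaling to library size alone shifted this split to 5473 higher and 2326 lower genes, from 3632 and 3508. With a gene-by-gene test on log2 CPM, which shares no estimate of the spread between genes, none of the 5 calls was kept, at adjusted p-values from 0.0505 to 0.0890. In bulk libraries, a larger share of cells making a keratin and more keratin RNA in each cell cannot be told apart.

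**Figure D1:**
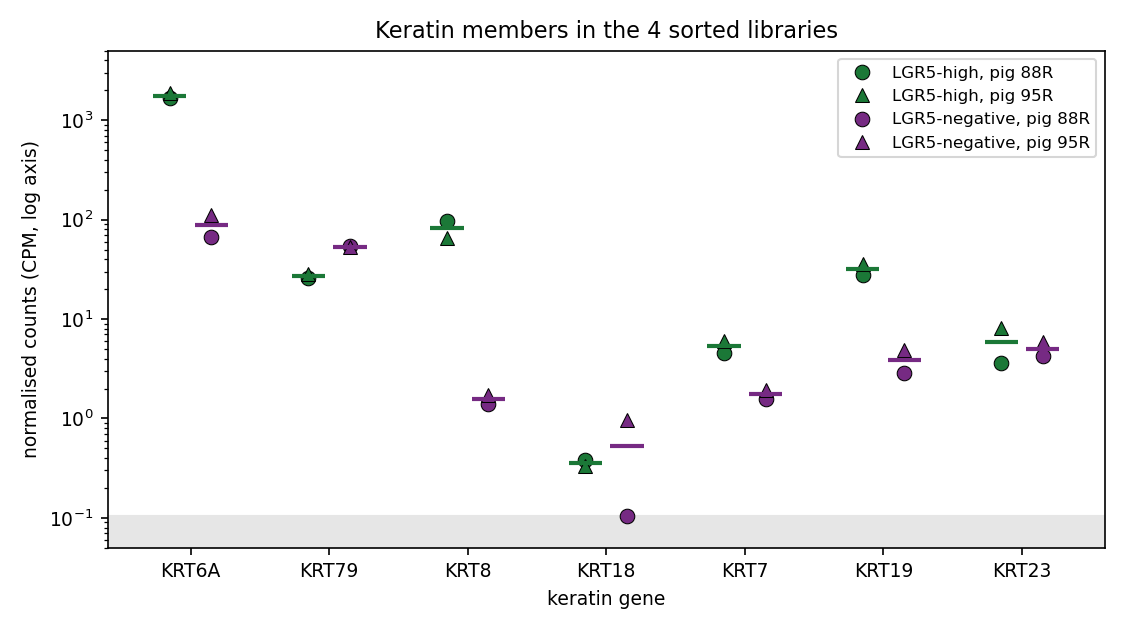
Normalised counts (CPM, log axis) of the 7 keratins with an entry, with green for LGR5-high and purple for LGR5-negative, circles for pig 88R, triangles for pig 95R and bars for the mean of the 2 pigs. The grey band lies at or under the highest CPM value that 3 counts had in a library, 0.105. The groups stand apart for KRT6A, KRT79, KRT8, KRT7 and KRT19, and overlap for KRT18 and KRT23.

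KRT6A, the type II keratin of the companion layer and of stressed epidermis, had 1681 and 1861 CPM in LGR5-high cells of pig 88R and of pig 95R, against 67.1 and 111 CPM in the LGR5-negative cells of these animals. Both LGR5-high libraries lay far above both LGR5-negative libraries, as they did for KRT8, KRT7 and KRT19, while 39.2% of all tested genes showed this order and 37.4% the opposite one. The means were 1771 ± 127 CPM and 89.0 ± 31.1 CPM (SD, n = 2). The log2 fold change of KRT6A was 4.31 (SE 0.261, edgeR adjusted p = 1.81e-04), above that of 97.9% of the tested genes. KRT6A also took most of the keratin counts described here. Of the summed counts of the 7 genes it held 91.3% and 92.8% in LGR5-high and 51.1% and 61.9% in LGR5-negative, as shares of counts, which also depend on transcript length. Together the 7 genes took 0.200% and 0.216% of all named counts in LGR5-high, and 0.0121% and 0.0167% in LGR5-negative.

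The type I partners of KRT6A, KRT16 and KRT17, had no entry under their symbols, and neither did KRT6B and KRT6C, its close copies. How reads that fit several similar keratin genes were counted is not given in the sources used here, so the value of KRT6A may hold or lack reads of such copies. In the RefSeq annotation of Sscrofa11.1, used here for names, gene types and gene order, 5 entries without a gene name lie between KRT82 and KRT6A. All 5 were tested, and 2 were higher and 1 lower in LGR5-high, or 4 higher and 1 lower in the fit with a replicate block for pig. The 2 entries higher without the block, named here after their values were seen, were LOC100525745 and LOC100737483. LOC100525745 had 11949 and 14160 counts in LGR5-high and 88 and 104 counts in LGR5-negative of pigs 88R and 95R, with a log2 fold change of 6.89 (SE 0.163). For LOC100737483 the counts were 56 and 53 in LGR5-high, and 10 and 9 in LGR5-negative. The tables used here pair neither entry with a keratin symbol, so neither can be read as KRT75 or as any other member. Stretches between other keratin genes, which may share entries, were counted in the same way without the block. From KRT80 to KRT18, 15 such entries were tested, with 4 higher and 5 lower. From KRT19 to KRT222, 6 were tested, with 1 higher and 0 lower, and the 1 tested from KRT5 to KRT74 was higher.

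KRT79, the type II keratin of the infundibulum and of the sebaceous duct, went the other way. Its values were 25.8 and 28.1 CPM in LGR5-high cells of pig 88R and of pig 95R, against 53.9 and 52.8 CPM in the LGR5-negative cells of these animals. Both LGR5-high libraries were the lower ones, and each population differed little between the pigs, with means of 27.0 ± 1.62 and 53.4 ± 0.793 CPM (SD, n = 2). The log2 fold change was -0.98 (SE 0.0969, edgeR adjusted p = 8.20e-04), and -1.06 and -0.91 in the separate pigs. With library size only, where the median over all tested genes was 0.24 in place of 0.02, KRT79 stood at -0.76 and was still called.

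KRT8, the type II chain of simple epithelia, showed the greatest difference among the 7 keratins. It had 97.8 and 65.6 CPM in LGR5-high cells of pig 88R and of pig 95R, against 1.40 and 1.72 CPM in the LGR5-negative cells of these animals, from 3362 and 2166 counts against 40 and 52. The populations did not overlap, and the LGR5-negative libraries were above the floor of 3 counts. Its log2 fold change was 5.70 (SE 0.266, edgeR adjusted p = 9.27e-05), at 6.06 for pig 88R and 5.20 for pig 95R. For comparison, 99.2% of the tested genes had the same or a smaller log2 fold change.

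KRT18, the usual type I partner of KRT8, had few counts in every library, and in 1 of the 4 was at the floor of 3 counts. It had 13 and 11 counts in LGR5-high and 3 and 29 counts in LGR5-negative of pigs 88R and 95R, which is 0.378, 0.333, 0.105 and 0.960 CPM. The 2 LGR5-negative libraries enclosed the LGR5-high ones, so the populations overlapped. Counting error alone gave 95% Poisson intervals of 0.619 to 8.77 for the 3 counts and 19.4 to 41.6 for the 29 counts, and these do not meet. KRT18 had a log2 fold change of -0.59 (SE 0.887, edgeR adjusted p = 0.619), and the 95% interval ran from -2.78 to 1.60. The values of the separate pigs had opposite signs, 1.39 in pig 88R and -1.37 in pig 95R. Without the LGR5-negative library of pig 95R the log2 fold change of KRT18 was 1.71 and was not called. The interval of KRT8, from 5.04 to 6.36, lay wholly above that of KRT18.

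KRT19, a small type I keratin, had 28.1 and 35.9 CPM in LGR5-high cells of pig 88R and of pig 95R. In the LGR5-negative libraries it had 2.84 and 4.90 CPM. Both LGR5-high libraries were above both LGR5-negative ones, and within each population pig 95R had the higher value. The log2 fold change was 3.04 (SE 0.281, edgeR adjusted p = 6.58e-04), with 3.28 and 2.86 in the separate pigs.

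KRT7, a type II keratin of glandular epithelium, was measured from far fewer reads. It had 158 and 199 counts in LGR5-high and 45 and 59 counts in LGR5-negative of pigs 88R and 95R, or 4.60, 6.02, 1.58 and 1.95 CPM. The order of the populations was the same in both pigs. Its log2 fold change was 1.58 (SE 0.267, edgeR adjusted p = 0.00563). The RefSeq annotation of Sscrofa11.1 lists this entry as a long noncoding RNA and not as a protein-coding gene. Which transcript model the counts were made on is not given in the sources used here.

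KRT23 was the other member without a call. Its values were 3.64 and 8.20 CPM in LGR5-high against 4.21 and 5.86 CPM in LGR5-negative of pigs 88R and 95R. The highest and the lowest value both came from LGR5-high, so the populations overlapped, and both libraries of pig 95R were above both libraries of pig 88R. The log2 fold change was 0.23 (SE 0.412, edgeR adjusted p = 0.676), with a 95% interval from -0.79 to 1.25. In pig 88R it was -0.21 and in pig 95R 0.48. Without the LGR5-high library of pig 95R it was -0.46 and was not called.

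**Figure D2:**
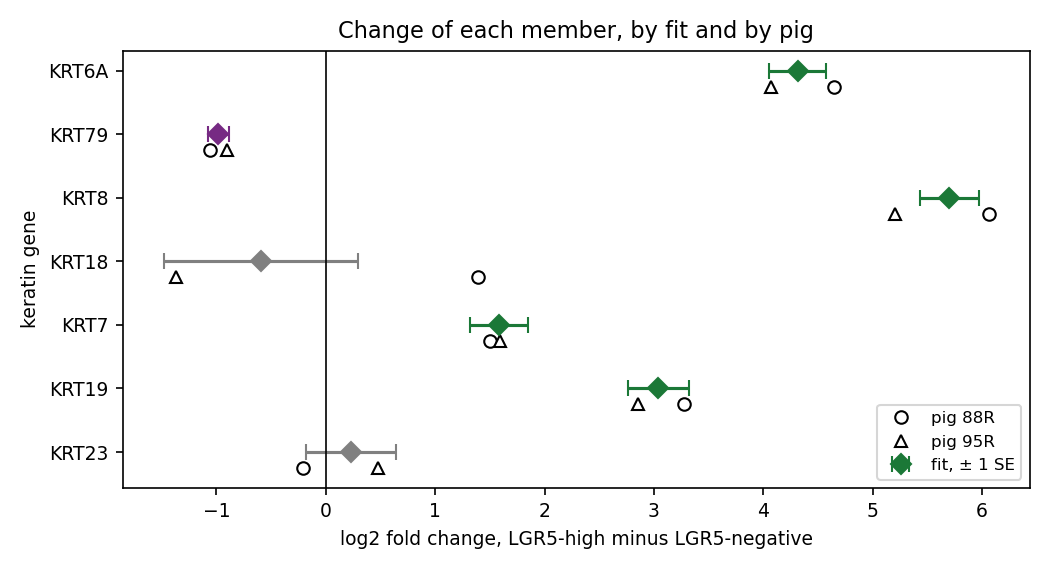
Log2 fold change (LGR5-high minus LGR5-negative) of each keratin on the horizontal axis. Diamonds give the edgeR fit with bars of 1 standard error, green for called higher, purple for called lower and grey for not called, and open circles and triangles give pigs 88R and 95R. For KRT18, at 1.39 and -1.37, and KRT23, at -0.21 and 0.48, the 2 pigs fall on opposite sides of 0.

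The pigs differed in how far apart the populations lay. The log2 fold changes of KRT6A were 4.65 in pig 88R and 4.07 in pig 95R, and KRT8 and KRT19 were likewise further apart in pig 88R. For KRT7 they were 1.50 and 1.59. Within LGR5-negative, the CPM of pig 95R was 1.66 times that of pig 88R for KRT6A and 1.72 times for KRT19. Within LGR5-high, the ratio was 0.670 for KRT8 and 2.26 for KRT23. With 1 library for each population and pig, a difference between the pigs in the fold change could not be tested, and the differences in level between the pigs were not tested.

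The other keratins were set beside these genes in 5 lists with 46 symbols, of which 29 had an entry and 24 were tested. Of the 24, 4 were called higher and 11 lower, and the median log2 fold change was -0.76, against 1.58 for the 7 keratins above and 0.02 for all tested genes. The 4 higher genes were all inner root sheath keratins. Of the 5 tested inner root sheath keratins 4 were higher, with a median of 2.70, and KRT27 and KRT25 had log2 fold changes of 3.99 and 3.53. KRT25 had 637 ± 143 CPM in LGR5-high against 55.1 ± 3.23 CPM in LGR5-negative (SD, n = 2). KRT71, KRT72 and KRT73 had no entry under these symbols.

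Epidermal and mucosal keratins moved in the opposite direction to KRT6A and KRT8. Of 7 tested genes 6 were lower and none was higher, with a median of -2.96, and the lowest values were -4.00 for KRT3 and -3.56 for KRT1, the type II keratin of the suprabasal epidermis. KRT79 thus shared its direction with these genes, at a smaller size. Hair shaft keratins had 4 of 9 tested genes lower and none higher, with a median of -0.90, and KRT84 and KRT35 stood at -2.76 and -2.40. The count of 4 fell to 2 with library size only, and to 2 without the LGR5-negative library of pig 88R or the LGR5-high library of pig 95R. In the list of other simple keratins only KRT222 was tested, and it was lower, with a log2 fold change of -1.80 (SE 0.309). KRT20, a simple keratin of Merkel cells, had 8 to 12 counts per library and did not pass the filter.

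Among the keratins of the outer root sheath and of stressed epidermis, KRT14 and KRT16 had no entry, and the tested genes were KRT5 and KRT15. KRT5, the basal type II chain, had 24577 ± 1292 CPM in LGR5-high against 27843 ± 2426 CPM in LGR5-negative (SD, n = 2), with a log2 fold change of -0.18 (edgeR adjusted p = 0.265). KRT15, a type I keratin of basal and bulge cells, had 1116 and 2345 CPM in LGR5-high cells of pig 88R and of pig 95R, against 715 and 1324 CPM in the LGR5-negative cells of these animals. LGR5-high was higher within each pig, but the populations overlapped across pigs. The log2 fold change of KRT15 was 0.76 (SE 0.417, edgeR adjusted p = 0.187), and with the pig as a replicate block it was 0.73 (SE 0.0904, edgeR adjusted p = 2.13e-06) and was called. KRT15 was also called by DESeq2 with the block and without the LGR5-negative library of pig 95R.

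**Figure D3:**
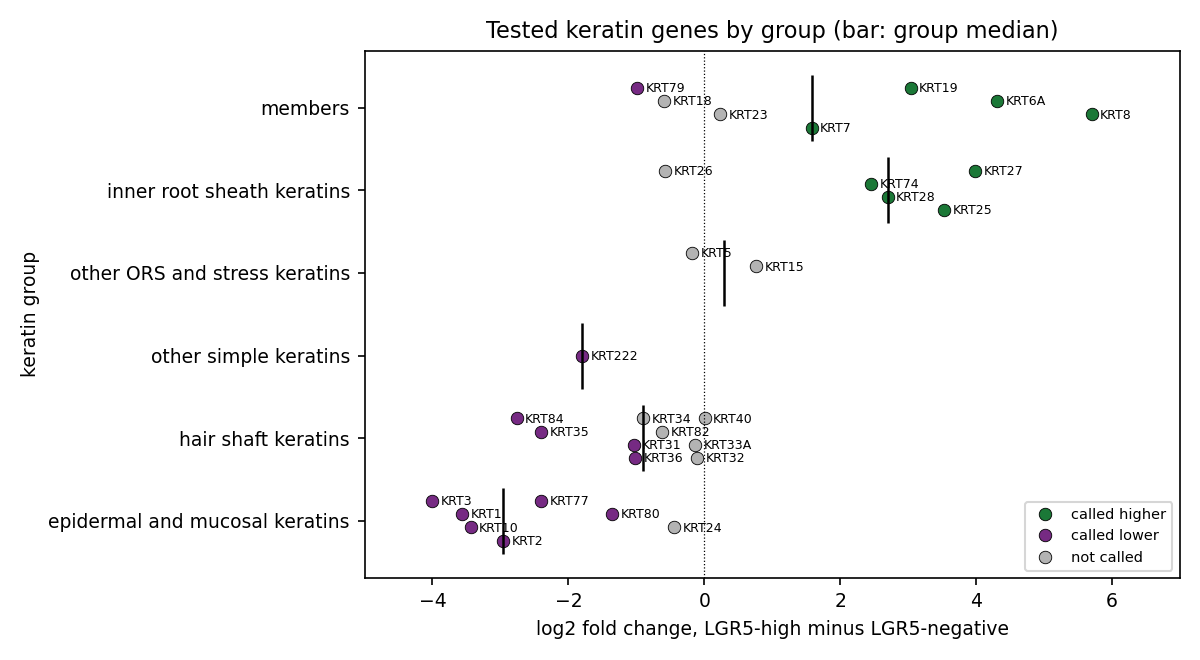
Log2 fold change (LGR5-high minus LGR5-negative) of every tested keratin gene on the horizontal axis, by group, with green for called higher, purple for called lower, grey for not called and a black bar for the group median. ORS stands for outer root sheath, and the top row, members, holds the 7 keratins described here. Their median lies at 1.58, that of the inner root sheath keratins at 2.70 and that of the epidermal and mucosal keratins at -2.96.

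Genes whose proteins bind or anchor keratin filaments did not rise with KRT6A and KRT8. Of 10 such genes, all tested, 8 were lower and none was higher, with a median log2 fold change of -0.79. PPL (periplakin), a linker of the cornified envelope, and TCHP (trichoplein) stood at -1.32 and -1.27. With the pig as a replicate block 1 gene of this list was called higher.

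Markers of the cell types that carry these keratins were read from the same libraries. For the Merkel cell, which makes KRT8 and KRT18, 3 of 9 genes were tested and all 3 were higher in LGR5-high. PIEZO2, a mechanically gated channel, had 389 and 238 counts in LGR5-high and 9 and 23 in LGR5-negative of pigs 88R and 95R, CHGA had 277 and 246 against 4 and 9, and SYP 242 and 141 against 81 and 70. The summed level of the list was 20.5 to 27.0 CPM in LGR5-high against 3.79 to 4.14 CPM in LGR5-negative. ATOH1, which defines the lineage, had 3 and 21 counts in LGR5-high and 0 and 2 in LGR5-negative. SOX2 had 3 and 5 counts against 0 and 0, and RAB3C was at 0 in every library. The other untested genes did not separate the populations. INSM1 had 3 and 12 counts in LGR5-high and 3 and 2 in LGR5-negative, ISL1 had 0 and 7 against 3 and 7, and KRT20 had 10 and 8 against 8 and 12. The part of Merkel cells in the level of KRT8 was not tested.

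The infundibulum, isthmus and sebaceous duct list, which bears on KRT79, split between directions. Of 7 tested genes 3 were higher and 2 lower. The summed level was 511 to 726 CPM in LGR5-high against 260 to 270 CPM in LGR5-negative. CST6 led this difference, with 253 and 492 CPM in LGR5-high of pigs 88R and 95R against 69.0 and 62.1 CPM in LGR5-negative. CST6, PLET1 and LRIG1 were higher, with log2 fold changes of 2.51, 2.34 and 0.92. KLK10 and DEFB1 were lower, like KRT79, with -2.16 and -1.48. In the sebaceous gland list 4 of 7 tested genes were higher and none was lower, or 1 lower without the LGR5-negative library of pig 88R or the LGR5-high library of pig 95R, with 273 to 280 CPM summed in LGR5-high and 140 to 158 CPM in LGR5-negative. The 4 higher genes were FADS2, SOAT1, MGST1 and SCD, with log2 fold changes of 5.02, 2.24, 1.89 and 1.08. FADS2 had 323 and 207 counts in LGR5-high against 1 and 13 in LGR5-negative. ELOVL3, which was not tested, had 11 and 6 counts against 0 and 0. Of the defining genes of the list, AWAT1 was at 0 in every library. PPARG had 9 and 6 counts in LGR5-high and 2 and 14 in LGR5-negative. Sweat gland genes, which bear on KRT7, KRT8 and KRT19, had 3 of 8 tested genes higher and 1 lower, or 3 lower with the replicate block and 2 lower without the LGR5-negative library of pig 88R or the LGR5-high library of pig 95R. Their summed level overlapped between the populations, at 269 to 338 CPM in LGR5-high against 264 to 433 CPM in LGR5-negative. KRT77, the lower gene and also one of the epidermal keratins above, held most of the LGR5-negative sum. It had 46.2 and 47.2 CPM in LGR5-high of pigs 88R and 95R, against 327 and 167 CPM in LGR5-negative. The 3 higher genes were AQP5, SLC12A2 and FOXC1, with log2 fold changes of 2.86, 1.63 and 1.34. AQP5 had 13 and 22 counts against 2 and 2, and FOXI1 was at 0. The count of 3 higher sweat gland genes was 2 by DESeq2, with or without the block, and with at least 10 counts in every library. In the companion layer and inner root sheath list 4 of 6 tested genes were higher and 1 lower. The sum was 1250 to 1512 CPM in LGR5-high and 641 to 709 CPM in LGR5-negative. The higher genes were TCHH (trichohyalin) at 4.00, FOXN1 at 0.64, and KRT27 and KRT25, the inner root sheath keratins given above. KRT25 alone had 738 and 536 CPM in LGR5-high of pigs 88R and 95R. GATA3 was lower, at -0.90. This list holds neither KRT75 nor KRT6A, so it does not set the companion layer apart from the inner root sheath. The part of these cell types in the keratin values was not tested.

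In the outer root sheath and bulge list 7 of 9 tested genes were higher in LGR5-high and none lower. The 7 include LGR5, whose reporter defined the sort, so its direction was set by the design. In the differentiated epidermis list 5 of 7 were lower and none higher. Markers of cells outside the keratinocyte lineage were mostly lower. Endothelium had 5 of 6 tested genes lower, the immune list 3 of 3 (PTPRC, CD207 and CD74, while the T cell genes CD3E and CD3D had 0 to 2 counts and were not tested), melanocytes 4 of 6, and fibroblasts 4 of 6, with 1 fibroblast gene, COL1A1, higher. COL1A1 was not called by DESeq2, nor without either library of pig 95R. Without the LGR5-high library of pig 95R the endothelial count was 3 and that of melanocytes 1, without the LGR5-high library of pig 88R they were 3 and 2, and without the LGR5-negative library of pig 88R the endothelial count was 3.

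The pattern over the 4 libraries was compared by the distance between log2(CPM + 1) values centred on each gene's own mean. The added 1 compresses genes of low CPM, so a small distance does not mean an equal fold change. Among the keratins, the one closest to KRT8 was KRT6A at a distance of 0.905, and the one closest to KRT6A was KRT27 at 0.826. KRT19 was closest to KRT74 at 0.657, KRT7 to KRT15 at 0.848 and KRT79 to KRT222 at 0.0798, although the log2 fold change was -1.80 for KRT222 and -0.98 for KRT79, and 0.76 for KRT15 and 1.58 for KRT7. Among all tested genes with a symbol and at least 1 CPM on average, the closest to KRT6A was RFLNA at 0.0230, the closest to KRT8 TSPAN7 at 0.303 and the closest to KRT19 SLC26A7 at 0.170. For KRT79 it was VPS37C at 0.0193 and for KRT7 ZKSCAN4 at 0.0529. The members without a call, KRT18 and KRT23, were closest to KRT26 at 0.593 and to KRT40 at 0.660 among keratins, and to WISP3 at 0.105 and CHP2 at 0.0634 among all genes. With 4 libraries many genes have such a pattern, and the distances are a description.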

How the data were processed

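Poly(A) RNA of sorted LGR5-high and LGR5-negative cells of 2 pigs was sequenced in paired-end mode. For each of the 4 libraries the authors deposited a count of reads per gene symbol, not normalized. The submitters' processing notes name Trimmomatic 0.36, STAR 2.5.2b, featureCounts and Subread 1.5.2, and the genome build, annotation and strand setting are not given in the sources used here. All 29837 symbols matched the RefSeq table of Sscrofa11.1, used for names, gene types and order. The entry without a name (0.360% to 0.626% of the counts) was left out.

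The comparison used edgeR 4.0.16 in R 4.3.3 (filterByExpr at 10 counts and a total of 15, TMM scaling, quasi-likelihood test with population as the only term, 2-sided, Benjamini-Hochberg adjustment over 15980 genes). Standard errors are the log2 fold change over the root of the F statistic, and 95% intervals use the fit's degrees of freedom. Fits used a prior count of 0.125, and values of separate pigs a prior count of 2. The floor of 3 counts, 0.0873 to 0.105 CPM, and the Poisson intervals cover counting error only. Libraries share an animal across populations, and after subtracting each population's mean the libraries of 1 pig correlated at 0.422 over 15980 genes. The pig was a block in an alternative only. Other alternatives were DESeq2 size factors, upper quartile or library size scaling, a filter of 1 count in total, a filter of 10 counts in each library, DESeq2 1.42.0 with and without the block, Student's t-test on log2(CPM + 1), and leaving out each library. The fits were also run on simulated data with independent libraries and no effect of the pig. That run therefore cannot decide whether the pig should be a block. Plots were drawn with matplotlib 3.10.9.

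The members, the 17 other gene lists and the rule for named genes were chosen with earlier results of these data known. Named were all members, the 2 most changed called genes in each direction of each keratin list, KRT5, KRT14, KRT15 and KRT16, the genes of nearest pattern, and marker genes by counts and ranges. LOC entries, PIEZO2, CHGA, SYP, CST6, PLET1, LRIG1, KLK10, DEFB1, TCHH, COL1A1, PTPRC, CD207 and CD74 were named after their values were seen. The same holds for FADS2, SOAT1, MGST1, SCD, ELOVL3, AQP5, SLC12A2, FOXC1, KRT77, FOXN1 and GATA3. No transcript lengths were used, so shares and sums of counts over genes are not per length, and protein and promoter sequences were not analysed here.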

Additional observations from a re-analysis of the deposited data

How the results depend on the processing

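KRT8, KRT6A, KRT19, KRT7 and KRT79 kept their direction under all 13 alternatives and their call under 12. The exception was Student's t-test on log2 CPM, under which 0 members were higher and 0 lower at adjusted p-values between 0.0505 for KRT8 and 0.0890 for KRT7. By the same test 5 of the 7 members had an unadjusted p-value under 0.05, and over all genes 544 were higher and 502 lower. Scaling to library size alone gave 5473 higher and 2326 lower genes. Leaving out each library gave between 2279 and 3169 higher and between 2139 and 3004 lower genes. KRT18 and KRT23 were called under no alternative run. KRT18 changed sign in DESeq2 with the replicate block, at 0.0353 on the log2 scale, and in the fits that left out a library it ranged from -1.43 to 1.71. With at least 10 counts in every library it was not tested. KRT23 ranged from -0.46 to 0.70 when a library was left out. In edgeR with the replicate block, 4 members were higher and 1 lower, and 4562 and 4342 of all genes, and besides the changes given above it moved the count of a list in the sebaceous gland list, with 1 gene lower, and in the melanocyte list, with 1 gene higher. Of 442 list counts under the alternatives 48 moved by over 1.5 times or to or from 0, 17 of them under the t-test. With at least 10 counts in every library 1 Merkel cell gene was called, and 2 endothelial, 2 fibroblast and 1 immune gene were lower. The causes were not tested. A fit without a library treats the single library left in its population as varying like the others. KRT18 rests on 3 to 29 counts per library. No genome or transcript sequence was used, so copies that share reads were not examined.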
